A study of Mus musculus with 4 samples.

Results

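Hnrnpab, Srsf2, Acin1 and R3hdm4, genes for splicing or RNA-binding proteins, were each studied with the entry annotated on the opposite strand across its exons, which were Phykpl, Mettl23, Gm17606 and Gm26602. These 8 genes, of the 50600 listed, were chosen from the measured counts of all 4 libraries, because the partner entry held far more counts per kilobase than the gene it lies opposite. The levels within a pair are therefore given as a description, with no test. The libraries were made from T-helper 2 cells of the mouse strain C57BL/6NJ, helper T cells that drive type 2 immunity, and the labels link a protocol for differentiating CD4+ T cells. The assay is labelled total RNA-seq, while the linked library protocol is named for poly(A)+ RNA. All 4 libraries belong to 1 group with no treatment named, carry the same donor identifier and are numbered as biological replicates 1 to 4; sex was not collected and age is given as unknown. The file headers name 16 hours, a time that is not in the labels. P-values measure the spread between these libraries, which may be partly technical.

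Pre-mRNA splicing is directed by proteins that bind the transcript beside the spliceosome. SR proteins such as Srsf2 carry an RNA recognition motif and an arginine and serine rich tail and favour the use of nearby exons, while hnRNP proteins such as Hnrnpab coat nascent transcripts and often act against them. Acin1 (acinus) joins Sap18 and Rnps1 in the ASAP complex, which attaches to the exon junction complex left on spliced mRNA, and R3hdm4 is named for the R3H domain, a fold that binds nucleic acid. Of the partners, Phykpl encodes a lyase that breaks down phosphorylated hydroxylysine and Mettl23 belongs to a family of methyltransferases. Gm17606 and Gm26602 are gene models annotated as protein-coding, to which the annotation gives no role.

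The smallest library held 1688658 counts and the largest 2222583. At this depth a gene with no count may have had up to 3, or 1.35 to 1.78 CPM by library. These limits and all intervals below cover counting error only. The 10 T cell markers all had counts in all 4 libraries, with a summed level of 220 to 312 TPM. Of 6 Th2 markers 4 did, while the cytokine genes Il5 and Il13 were at 0. Of markers of other cells, 4 of 5 for myeloid cells, 4 of 5 for CD8 and NK cells, 2 of 3 for mast cells and basophils and 2 of 3 for erythroid cells had no count in any library, Lyz2, Cd8a and Mcpt8 among them. There were 2 B cell markers with counts in all 4 libraries, and their list summed to 10.3 to 16.5 TPM. The myeloid list summed to 133 to 163 TPM, with Csf1r its only gene above 0. Genes with an exon opposite another gene held 91.8 ± 1.35% of counts (SD, n = 4), though they were 8189 of the 50600 genes, or 16.2%. Every gene was counted on its annotated strand under strand option 1, per the file headers. Whether that strand is the one the transcripts came from was not tested, and no source used here states it, so every value below is a level on the counted strand.

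In all 4 pairs the splicing or RNA-binding gene lies on the minus strand and its partner on the plus strand, and the exon overlap ranged from 125 to 809 bases on mm10. Hnrnpab (ENSMUSG00000020358.17, chr11:51600100-51606847) and Phykpl (ENSMUSG00000020359.13, chr11:51584757-51604489) meet tail to tail and share 809 bases in 3 segments, which make up 29.1% of Hnrnpab exons and 8.34% of Phykpl exons. In Hnrnpab 719 of these bases are 3′ UTR and 90 are coding. In Phykpl 101 are coding, 263 are 3′ UTR and 445 belong to a transcript without a reading frame. Srsf2 (ENSMUSG00000034120.18, chr11:116849901-116853094) lies inside the span of Mettl23 (ENSMUSG00000090266.10, chr11:116843278-116854263), and their 460 shared bases are 3′ UTR of Srsf2 and a noncoding transcript of Mettl23. They are 15.6% of Srsf2 exons and 17.1% of Mettl23 exons. Thus for the 2 larger partners the overlap is a minor part of the exons over which counts were taken.

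The 2 short partners lie mostly or almost wholly opposite, and all their shared bases are annotated as coding in the partners themselves. Gm17606 (ENSMUSG00000091306.2, chr14:54640952-54648293) has 4 exon blocks that sum to 234 bases, of which 125, or 53.4%, face Acin1 (ENSMUSG00000022185.18, chr14:54642161-54686931); these are 1.45% of Acin1 exons. Gm26602 (ENSMUSG00000097854.1, chr10:79910856-79911140) is a single block of 285 bases, of which 284 face R3hdm4 (ENSMUSG00000035781.14, chr10:79910052-79921208), where 98 are coding and 186 are 3′ UTR. Their sequences are shown because the same bases, read on the other strand, belong to Acin1 and R3hdm4, so that strand alone decides which entry a read from them is counted for. Capitals mark bases that lie opposite an exon of the partner gene, and lower case marks the rest. The sequences are those of the GENCODE M21 transcripts on GRCm38, plus strand, 5′ to 3′. For Gm26602 the stretch opposite R3hdm4 coding sequence is shown (chr10:79911042-79911140).
Gm17606: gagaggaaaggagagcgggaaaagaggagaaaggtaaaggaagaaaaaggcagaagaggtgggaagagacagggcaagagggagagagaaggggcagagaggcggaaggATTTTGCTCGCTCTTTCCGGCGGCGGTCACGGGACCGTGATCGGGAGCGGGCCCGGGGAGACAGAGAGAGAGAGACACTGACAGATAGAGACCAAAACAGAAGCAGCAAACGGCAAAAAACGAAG
Gm26602: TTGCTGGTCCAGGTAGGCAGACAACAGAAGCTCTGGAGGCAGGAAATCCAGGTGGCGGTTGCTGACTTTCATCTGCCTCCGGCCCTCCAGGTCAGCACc
The capitals of Gm17606 form a single run in the spliced sequence and join 3 stretches (chr14:54643968-54644018, chr14:54644142-54644148 and chr14:54648227-54648293). All 3 were found reverse complemented in transcripts of Acin1, which says little for the second, of 7 bases. The first 2 of them are Acin1 coding sequence and the third, of 67 bases, belongs to Acin1 transcripts without a reading frame. In the Gm26602 stretch 98 of 99 bases face R3hdm4.

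**Figure D1:**
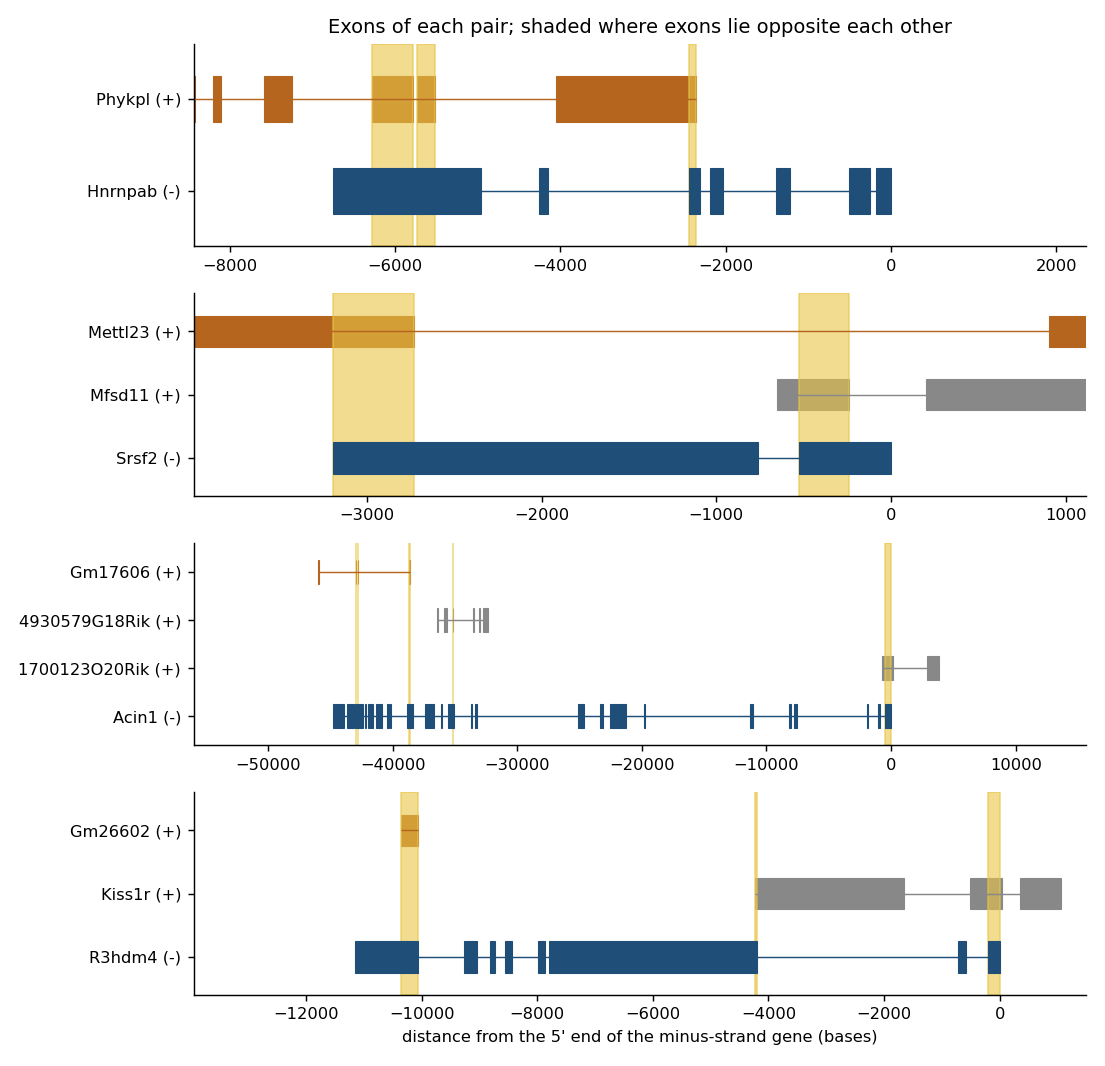
Exon maps of the 4 pairs, with partners above and the minus-strand gene at the bottom of each panel; the x axis is the distance in bases from the 5′ end of the minus-strand gene, boxes are exon blocks and yellow bands mark bases where exons lie opposite each other. Exons beyond the panel edges are not drawn; the bands under the partners cover 809, 460, 125 and 284 bases from top to bottom, and the other bands belong to grey entries, further genes opposite the same gene.

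Hnrnpab was the highest of the 4 splicing and RNA-binding genes, and Phykpl took the largest share of counts of the 8. Phykpl had 33171, 34712, 43343 and 39551 counts in replicates 1 to 4, and Hnrnpab had 470, 319, 639 and 1008. Phykpl was far above Hnrnpab in each library, with no overlap between them. Per kilobase of annotated exon, Phykpl had 3420, 3579, 4469 and 4078 counts and Hnrnpab had 169, 115, 230 and 362. The ratio was smallest in replicate 4, at 11.3-fold (95% exact interval 10.57 to 11.99), and largest in replicate 2, at 31.2-fold (27.95 to 34.96). On the log2 scale Phykpl exceeded Hnrnpab by 4.27 ± 0.60 (SD, n = 4). Phykpl alone held 2.01 ± 0.0703% of all counts and Hnrnpab held 0.0322 ± 0.0149% (SD, n = 4).

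Mettl23 lay about as high as Phykpl per kilobase, and Srsf2 lay below Hnrnpab. Mettl23 had 11671, 10672, 13439 and 10609 counts in replicates 1 to 4, and Srsf2 had 115, 97, 111 and 190. The difference per kilobase was 6.68 ± 0.50 on the log2 scale (SD, n = 4), with the smallest ratio again in replicate 4, 61.2-fold (95% exact interval 53.1 to 71.1), and the largest in replicate 3, 133-fold (110 to 162). Srsf2 has a further gene opposite, since Mfsd11, a gene of the major facilitator family of transporters, covers 288 bases of its coding sequence. Mfsd11 had 6119, 4818, 8774 and 7786 counts and a level of 755 ± 120 TPM (SD, n = 4), below that of Mettl23. Mfsd11 also shares 257 exon bases with Mettl23 on the same strand, and the headers record no option to count reads that touch both, so both values are uncertain there. The 5′ end of Mettl23 faces Jmjd6, a hydroxylase gene, across 172 bases, and Jmjd6 had 9, 12, 19 and 26 counts.

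Acin1 was at a level like that of Srsf2, and 3 entries with unequal levels lie opposite it. Gm17606 had 1283, 1334, 1626 and 1632 counts in replicates 1 to 4, and Acin1 had 380, 246, 291 and 483. Because Gm17606 is so short, its counts are only 3.38 to 5.59 times those of Acin1, while per kilobase the ratio ran from 125-fold in replicate 1 to 207-fold in replicate 3. The log2 difference per kilobase was 7.32 ± 0.41 (SD, n = 4). Of the other 2 entries, 4930579G18Rik, annotated as antisense, faces 75 coding bases of Acin1 and had 2052, 1999, 2556 and 2301 counts, a level of 1807 ± 36.7 TPM. 1700123O20Rik faces 463 bases at the 5′ end of Acin1 and was at 172 ± 12.4 TPM (SD, n = 4 each). Among these 3 entries the longest overlap with Acin1 went with the lowest level. These levels are over whole entries, and any link between level and overlap was not tested.

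R3hdm4 was close to the detection limit while Gm26602 was among the highest entries per kilobase. Gm26602 had 1329, 1348, 1315 and 1228 counts in replicates 1 to 4, and R3hdm4 had 2, 8, 4 and 7. With so few counts in R3hdm4 the ratio per kilobase is loosely bounded, at 13020-fold in replicate 1 (95% exact interval 3597 to 107618) and 3301-fold in replicate 2 (1671 to 7663). Over the 4 libraries together it was 4870-fold (3183 to 7875). Kiss1r, the kisspeptin receptor gene, is a further gene opposite R3hdm4, across 247 bases at its 5′ end, and had 1, 0, 0 and 1 counts. Of the 2 entries opposite R3hdm4, that over its 3′ part thus had at least 1228 counts in each library and that over its 5′ part had at most 1.

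**Figure D2:**
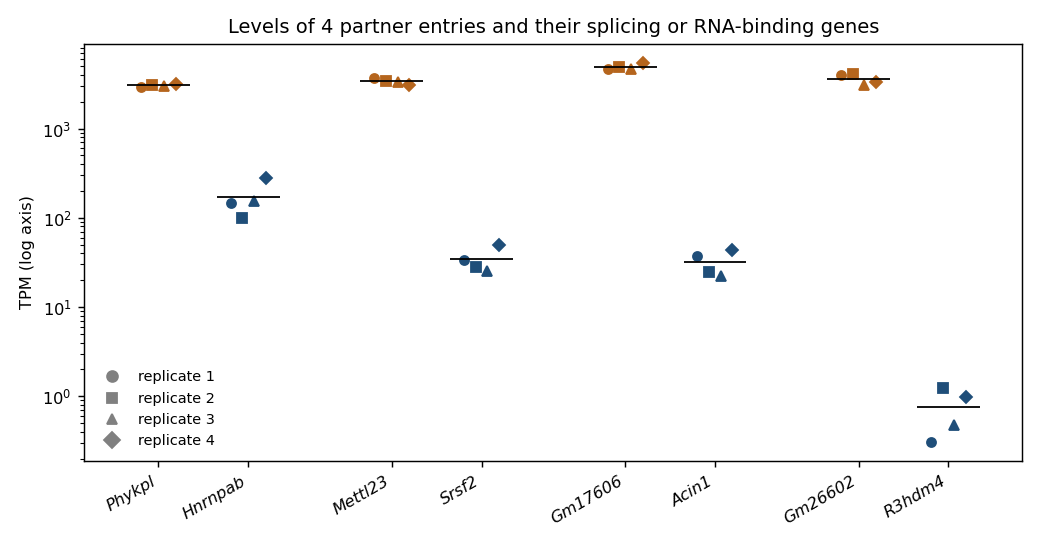
Level of each gene in TPM on a log axis, with the partner left of the gene it lies opposite; symbols are the 4 libraries and bars are means. The partners sit between 2930 and 5438 TPM, while the genes opposite them sit between 0.307 and 283 TPM.

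In order of level, Gm17606 led with 4933 ± 361 TPM, followed by Gm26602 with 3637 ± 492, Mettl23 with 3386 ± 264 and Phykpl with 3052 ± 112 TPM (SD, n = 4 each). Gm26602, Mettl23 and Phykpl overlapped in range over the libraries, and the lowest Gm17606 value, 4650 TPM, was above all of theirs. Hnrnpab followed at 170 ± 78.6 TPM, then Srsf2 at 34.2 ± 11.1, Acin1 at 32.1 ± 10.1 and R3hdm4 at 0.752 ± 0.434 TPM (SD, n = 4 each). Srsf2 and Acin1 overlapped in range. TPM divides by annotated length, 234 bases for Gm17606 and 285 for Gm26602, with no correction for short entries. By mean share of counts the order of the partners was Phykpl, Mettl23, Gm17606 and Gm26602, at 2.01, 0.621, 0.0785 and 0.0705%. The 4 partners together held 2.78 ± 0.0645% of the counts of a library, and the 4 genes opposite them held 0.0583 ± 0.0222% (SD, n = 4 each). By TPM the partners ranked between 22 and 53 in every library, Hnrnpab between 582 and 1120, and R3hdm4 between 8633 and 12326.

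A gap of at least 4-fold was common among opposite-strand neighbours, while gaps as large as that of Gm26602 over R3hdm4 were rare among pairs with counts in both genes. Of 3248 pairs of genes with exons opposite each other and at least 10 counts between them, 2385, or 73.4%, had 1 gene at least 4-fold above the other per kilobase in all 4 libraries, as did the 4 pairs here. Since that comparison chose the pairs, nothing is read from their count. In 351 of the pairs a gene was at 0, so that no ratio exists; over the other 2897 the absolute log2 ratio of mean counts per kilobase had a median of 4.74. Phykpl over Hnrnpab lay at percentile 44.0 of these 2897, Mettl23 over Srsf2 at 69.5, Gm17606 over Acin1 at 76.3 and Gm26602 over R3hdm4 at 99.3. With the 351 pairs ranked above every ratio, Gm26602 over R3hdm4 lay at percentile 88.6 of the 3248. In the 2385 pairs the higher gene was on the plus strand in 1194 and on the minus strand in 1191, with no excess of either strand.

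**Figure D3:**
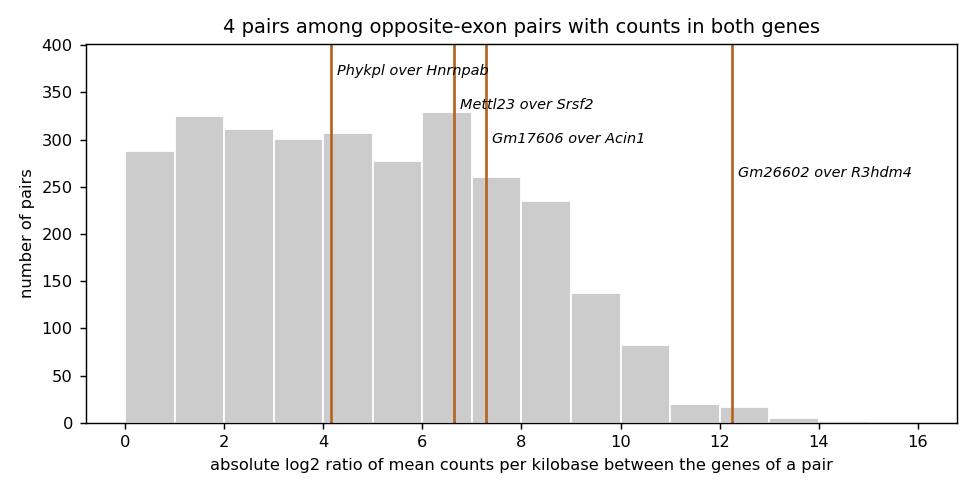
Number of opposite-exon pairs by the absolute log2 ratio of mean counts per kilobase between their genes, with vertical lines for the 4 pairs; 351 pairs with a gene at 0 have no ratio and are not drawn. The line of Gm26602 over R3hdm4 lies in the upper tail, at percentile 99.3 of the 2897 pairs drawn, and the other lines lie between percentiles 44.0 and 76.3.

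Between the 4 libraries each partner had a smaller coefficient of variation than the gene opposite it, and Hnrnpab was the only member past the threshold of the variation test. In CPM scaled by TMM, Phykpl had 19581, 21448, 21847 and 20013 in replicates 1 to 4, and Hnrnpab had 277, 197, 322 and 510. The coefficient of variation was 5.28% for Phykpl and 40.6% for Hnrnpab, 10.97% for Mettl23 and 25.9% for Srsf2, 4.10% for Gm17606 and 26.0% for Acin1, and 13.7% for Gm26602 and 57.0% for R3hdm4. Counting error alone, at the mean count, would give 0.515% for Phykpl and 4.05% for Hnrnpab, 0.929% for Mettl23 and 8.83% for Srsf2, 2.61% for Gm17606 and 5.35% for Acin1, and 2.77% for Gm26602 and 43.6% for R3hdm4. The coefficient of variation was above its counting value for all 8 genes, and least so, as a ratio, for R3hdm4 and Gm17606. Whether so small an excess is more than counting error was not tested. In bulk RNA, a library with fewer cells that express a gene and one with less RNA per cell cannot be told apart.

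Replicate 4 was the highest library for Hnrnpab, Srsf2 and Acin1 by TMM-scaled CPM, by TPM and by share of counts. Of the partners, only Phykpl changed its highest library with the scaling. It was highest in replicate 3 by TMM-scaled CPM but in replicate 4 by TPM, at 3179 TPM, and by share of counts. Mettl23 was highest in replicate 1 and Gm26602 in replicate 2 under each of these scalings. Srsf2 had a CPM, scaled by TMM, of 67.9, 59.9, 55.9 and 96.1 in replicates 1 to 4, and Mettl23 had 6889, 6594, 6774 and 5368, its lowest value being in replicate 4. Acin1 had 224, 152, 147 and 244, and Gm17606 had 757, 824, 820 and 826. Gm17606 was also highest in replicate 4, by a margin smaller than its counting error of 2.61% on this scale but larger by TPM, at 5438 TPM in replicate 4 and 4948 TPM in the next library. In edgeR's quasi-likelihood test of variation between replicates, one-sided, 22 of 4918 genes passed at an adjusted p under 0.05, or 0.447%. Of the 7 members tested, Hnrnpab passed, with an adjusted edgeR p of 0.000835, and 6 did not: Acin1 had an adjusted p of 0.401 and an unadjusted p of 0.00611, and the other 5 had adjusted p of 0.956 or more. R3hdm4 had too few counts to be tested. The Hnrnpab call was lost without replicate 4, at an adjusted edgeR p of 0.691. Without replicate 2, its lowest library, the call was only just kept, at an adjusted edgeR p of 0.04996. The call was also lost when edgeR used library totals in place of TMM, at an adjusted p of 0.111, and with limma on log2(TPM + 1), at 0.913.

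**Figure D4:**
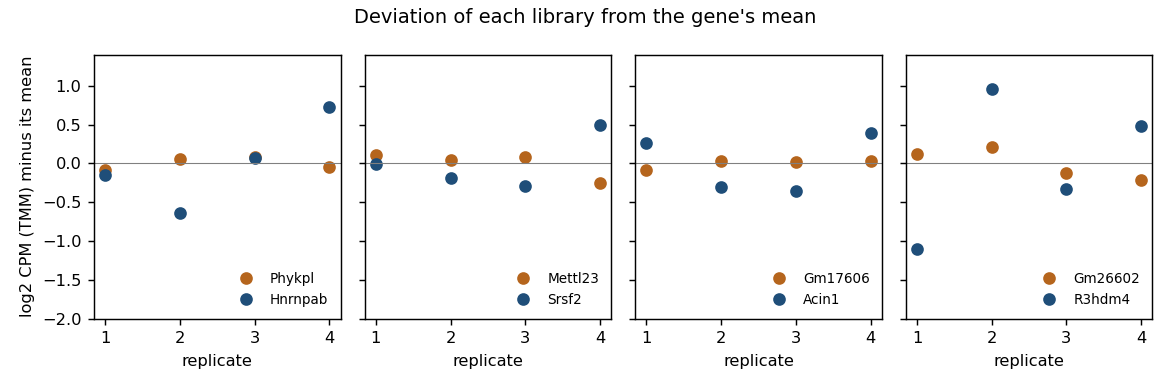
Deviation of each library from the gene's mean, in log2 CPM scaled by TMM, for the partner and the gene opposite it in each of the 4 pairs. By SD over the libraries each partner varied less on this scale than the gene opposite it, though not in each single library. The genes opposite have fewer counts and a larger counting error. Hnrnpab, Srsf2 and Acin1 are highest in replicate 4, and R3hdm4 rests on 2 to 8 counts.

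The genes with the profile most like that of Hnrnpab had far fewer counts. By Euclidean distance between centred log2 CPM values over the 4 libraries, the closest of 4917 genes were Pinx1, an inhibitor of telomerase, at 0.0991, Zfp622, a zinc finger gene, at 0.132, and Gm43137 at 0.149, against a median distance of 1.05. Pinx1 had 17, 12, 25 and 38 counts in replicates 1 to 4, Zfp622 had 19, 14, 26 and 45, and Gm43137 had 99, 59, 134 and 196. None of the 3 passed the variation test, with adjusted edgeR p of 0.34 or more.

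The same measures were taken for 87 genes in 6 lists of splicing proteins, of which 86 had counts in all 4 libraries. Of the 87, 27 had an exon opposite, and in 20 of these the opposite gene with the highest level exceeded the splicing gene at least 4-fold per kilobase in all 4 libraries, while in 5 the splicing gene exceeded it. Counted by pairs, 32 of 35 pairs, or 91.4%, had a 4-fold gap in either direction, beside 73.4% of all pairs. The 29 pairs that hold no member gave 93.1%. Of all pairs with at least 100 counts between the genes, 78.5% had such a gap. The splicing pairs were not matched to the others by counts. The median counts per kilobase were 563 ± 83.7 for the highest opposite gene, 22.7 ± 4.51 for the 27 splicing genes with an exon opposite and 8.25 ± 2.53 for the 60 without (SD, n = 4). Over all protein-coding genes the medians were 1.83 ± 0.264 with an exon opposite and 0 without (SD, n = 4). Choosing the highest opposite gene raises the first median, of 563. Without the members it was 406.

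Among the SR proteins, the 3 genes with an exon opposite all lay below it. Gm11508 was at 6065 ± 573 TPM opposite Srsf1, a founding SR protein, at 20.2 ± 5.11 TPM, and Gm12992 at 901 ± 42.6 TPM opposite Srsf4 at 82.3 ± 20.5 TPM (SD, n = 4 each). In the hnRNP list 12 of 25 genes had an exon opposite. Gm17134 reached 10280 ± 697 TPM opposite Ptbp1, which represses exons through pyrimidine tracts, at 12.2 ± 4.19 TPM, and Cox20, a mitochondrial assembly factor gene, was at 1219 ± 128 TPM opposite Hnrnpu at 111 ± 17.2 TPM (SD, n = 4 each). In both lists the 2 highest genes by TPM had an exon opposite, Hnrnpab and Hnrnpu, and Srsf4 and Srsf2. By median the hnRNP list did not follow the lists as a whole, with 19.1 ± 4.14 counts per kilobase for its genes with an exon opposite and 20.5 ± 5.83 for those without (SD, n = 4 each).

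In the list of exon junction and ASAP proteins, Acin1 was the highest of 9, before Eif4a3, the helicase that anchors the junction complex, at 12.6 ± 3.93 TPM and, level with it, the splicing cofactor gene Pnn at 12.6 ± 3.26 TPM. Casc3, at 7.93 ± 2.64 TPM, faced Gm12359 at 557 ± 38.0 TPM (SD, n = 4 each). For the U1 and U2 snRNP proteins the direction was mixed. 4933408J17Rik was at 1381 ± 395 TPM opposite the Sm protein gene Snrpf at 12.8 ± 5.66 TPM, and Cog4 at 183 ± 19.8 TPM opposite Sf3b3 at 2.41 ± 0.777 TPM, while Plekhj1 was at 24.2 ± 7.71 TPM opposite Sf3a2 at 184 ± 18.3 TPM (SD, n = 4 each). Snrnp70, a U1 protein gene with no exon opposite, was at 39.3 ± 12.9 TPM. Of the tri-snRNP genes, Sart1 was highest at 16.5 ± 6.36 TPM, then Prpf8 at 9.10 ± 3.21 TPM, neither with an exon opposite; Gm26668 was at 427 ± 21.4 TPM opposite Eftud2 at 3.76 ± 0.912 TPM and Gm15927 at 418 ± 31.9 TPM opposite Prpf31 at 7.29 ± 1.64 TPM (SD, n = 4 each). Among SR protein kinases, Edc3 was at 234 ± 16.1 TPM opposite Clk3 at 19.6 ± 1.25 TPM, and Kmt2e at 4.25 ± 0.478 TPM opposite Srpk2 at 26.4 ± 5.06 TPM (SD, n = 4 each).

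**Figure D5:**
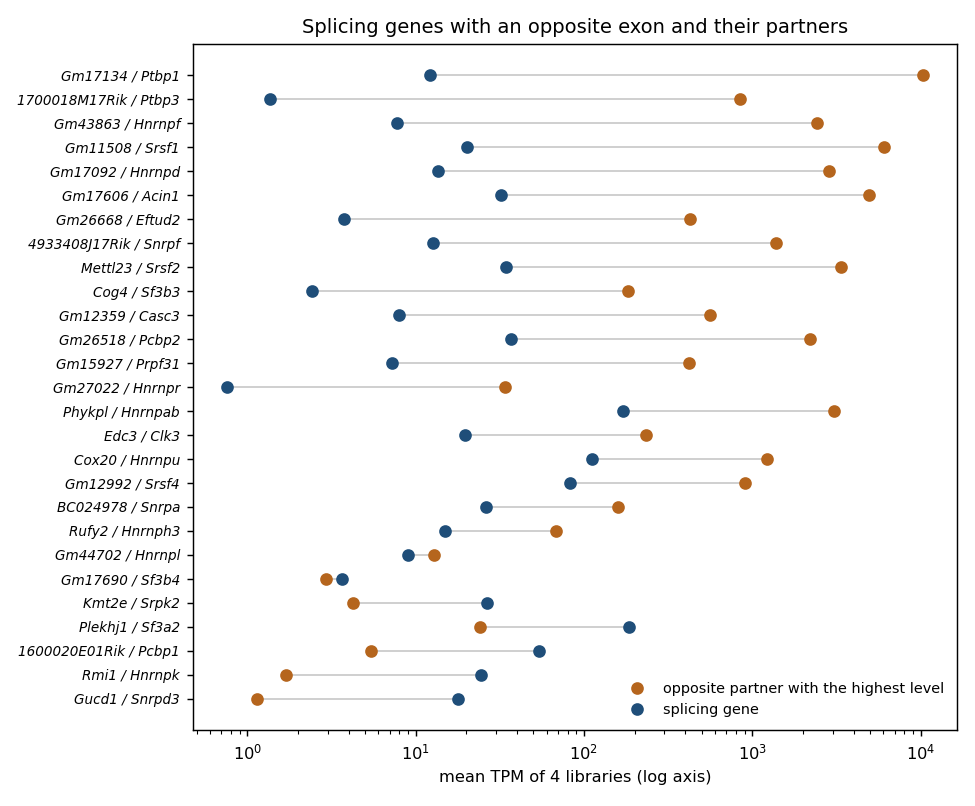
Mean TPM of 4 libraries on a log axis for the 27 splicing genes with an exon opposite and, for each, the opposite gene with the highest level, ordered by the ratio of the pair. Orange points lie right of blue ones in all but the lowest 6 rows; 20 of the 27 have a partner at least 4-fold higher per kilobase in all libraries.

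Across the splicing lists, Hnrnpab was the only 1 of 66 tested genes to pass the variation test, beside 0.447% of all genes tested, and 17 of the 66 had an unadjusted edgeR p under 0.05, beside 281 of 4918. The median F, the ratio of a gene's spread to that of genes of like abundance, was 1.58 for the 66 and 0.795 for all genes tested. After Hnrnpab the lowest unadjusted edgeR p were those of Syncrip, an hnRNP gene, at 0.00249 and of Snrnp70 at 0.00251, both with an adjusted p of 0.258. Among the highest opposite genes, 4933408J17Rik, facing Snrpf, and Gm17092, facing Hnrnpd, also passed the test. Their adjusted edgeR p were 0.0123 and 0.0484. Replicate 4 was the highest library for 44 of the 66 and replicate 3 the lowest for 49. Over 5178 genes with at least 10 counts in every library, replicate 4 was highest for 28.9% and replicate 3 lowest for 32.5%. Of 24 opposite genes of the splicing lists with such counts, replicate 4 was highest for 3 and replicate 3 lowest for 3. These are orders by TMM-scaled CPM. Scaled by library totals, replicate 4 was highest for 50 of the 66 splicing genes, 43.5% of the 5178 genes and 8 of the 24 opposite genes, and replicate 3 lowest for 54, 49.0% and 12. Replicate 4 also had the largest share of counts in genes with no exon opposite, 9.93%, and replicate 3 the smallest, 6.70%, and the ribosomal RNA gene CT010467.1 held 9.40% of replicate 3 against 1.29 to 5.05% of the others; their part in these differences was not tested.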

How the data were processed

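Per the file headers, the authors deposited raw counts of read pairs per gene, made with featureCounts 1.4.6-p4 (exons grouped by gene, both ends aligned, strand option 1) on GENCODE M13; the build is mm10, per the labels. No source used here gives the aligner. Symbols, gene types and coding annotation were taken by identifier from GENCODE M21, also mm10, which held 99.6% of the 50600 genes; exons are those of the deposited tables. Genes without a symbol held 0.552% of counts. TPM, CPM and counts per kilobase were computed here from the deposited counts and lengths. Exon overlaps were taken with bedtools 2.31.1.

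For the spread between replicates, a robust quasi-likelihood model with an intercept and 3 residual degrees of freedom was fitted in edgeR 4.0.16 (TMM scaling, filterByExpr at a minimum count of 10, upper tail of F, Benjamini-Hochberg over all genes tested, threshold 0.05). The prior degrees of freedom were those of genes that are not outliers. The test was checked on simulated counts in which some genes were raised in a single library. It recovered 29.7% of 2-fold, 87.3% of 4-fold and 100% of 8-fold changes, with 4 false calls among 4489 unchanged genes. A gene that did not pass may therefore still vary by 2-fold or, less often, by 4-fold. DESeq2 1.42.0, limma 3.58.1 and other filters, scalings and left-out replicates served as alternatives, with R 4.3.3 and Python 3.11.15. Ratio intervals are exact (Clopper-Pearson). Shares were of all counts in a library.

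The members and the gene lists were chosen with earlier results of these data known. Named genes are the 8 members, every gene whose exons overlap theirs, in each splicing list the 2 highest and the 2 with the highest opposite gene, members that passed the variation test, and the 3 nearest profiles of such members. Counts of the highest and lowest library were chosen after the values were seen, as was the naming of Syncrip, Pnn, Hnrnpd and Gm17092. So were the alternatives without the members and with library order by library totals. Protein sequences were not used here, and 1 marker is not reported here.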

Additional observations from a re-analysis of the deposited data

How the results depend on the processing

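Every pair kept its direction under all alternatives run, which is no test, since the pairs were chosen for this gap in the same libraries. Relative to 4.27, 6.68, 7.32 and 12.44 for Phykpl over Hnrnpab, Mettl23 over Srsf2, Gm17606 over Acin1 and Gm26602 over R3hdm4 (log2), plain counts gave 6.07 for Phykpl, 2.11 for Gm17606 and 8.15 for Gm26602. Dividing all counts of the partner by the overlap length alone gave 7.85 for Phykpl, 9.23 for Mettl23 and 8.22 for Gm17606. These values follow from the lengths used, and reads within the overlaps were not counted separately. The share of pairs with a 4-fold gap was 78.5% with at least 100 counts between the genes and 75.5% with at least 100 bases of overlap. Over protein-coding counts alone the shares of Phykpl, Mettl23, Gm17606, Gm26602, Hnrnpab, Srsf2, Acin1 and R3hdm4 were 3.76, 1.16, 0.147, 0.131, 0.0597, 0.0128, 0.0350 and 0.000530%, since fewer genes enter the total. The median of opposite genes in the splicing lists was 406 counts per kilobase without the members, an alternative chosen after seeing the data.

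The count of varying genes, 22, was 2 with library totals only, 9 with a non-robust prior, 56 with no count filter and 1 with limma on log2(TPM + 1), and 11 to 21 when a replicate was left out; the cause was not tested. Without replicate 4 it was 11, of which 10 were among the 22. The count of members called, 1, was 0 with library totals and with limma, and 0 to 1 with a replicate left out. Hnrnpab lost its call in 3 of 10 alternatives. Its adjusted p was 0.111 by edgeR with library totals, 0.913 by limma and 0.691 by edgeR without replicate 4. By edgeR without replicate 2 the call was only just kept, at an adjusted p of 0.04996. The adjusted p of Hnrnpab over the alternatives ran from 2.57e-05 to 0.913. DESeq2 marked it as a dispersion outlier, 1 of 22. No paired analysis was possible because there is 1 group.

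Depth limits R3hdm4 and Kiss1r most, with 2 to 8 and 0 to 1 counts in a library.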

Other observations

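In 5 of the 27 splicing genes with an exon opposite, the splicing gene was at least 4-fold above the opposite gene per kilobase in all 4 libraries, as named here after their values were seen. The pairs, opposite gene first, were Rmi1 and Hnrnpk, 1600020E01Rik and Pcbp1, Gucd1 and Snrpd3, Plekhj1 and Sf3a2, and Kmt2e and Srpk2. Their overlaps were 53, 75, 232, 429 and 972 bases. Hnrnpk and Pcbp1 both encode poly(C)-binding proteins with KH domains. The log2 ratios of mean counts per kilobase, opposite gene over splicing gene, were -3.80, -3.32, -3.95, -2.90 and -2.66 in the same order.

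The overlap of Gm44702 with Hnrnpl and of Gm17690 with Sf3b4 gave neither gene a 4-fold excess in all libraries, with log2 ratios of 0.54 and -0.30 over 32 and 85 bases.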
